A study of Rattus norvegicus with 8 samples.

Results

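Mdm2, the 3 Gadd45 genes, the 2 cyclin G genes and the 3 BTG genes form a group of 9 growth arrest genes that p53, stress and differentiation signals are known to act through. They were found by gene name on the whole-genome array, after the suffix of predicted transcripts had been removed from the name. The 9 genes are read by 11 of its 41012 probes, since Mdm2 and Ccng1 have 2 probes each and the other genes have 1. A search by transcript accession added 0 further probes. All 11 probes were well above background on all 8 arrays by the scanner software's own flag, so no member was lost to a filter on low signal.

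Gene expression was compared between rat thymocytes, the immature T lymphocytes of the thymus, cultured for 6 hours without hormone (Control, 4 arrays) and with 100 nM dexamethasone, a synthetic glucocorticoid (Dex, 4 arrays). All cells came from male Sprague-Dawley rats whose adrenal glands had been removed 1 to 2 weeks earlier, which takes away their own source of glucocorticoid, and the thymi of 3 rats were pooled for each preparation. The study states 3 biological replicates per group, whereas the labels hold 4 arrays per group and do not say which come from separate preparations, so p-values measure only the spread between arrays. The comparison asks which of these genes responded to a dose of dexamethasone that leads thymocytes into apoptosis.

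The p53 protein is a transcription factor that halts the cell cycle or starts cell death after damage, and MDM2 is the ubiquitin ligase that removes it. GADD45 proteins are small acidic stress proteins that bind the kinase MAP3K4, PCNA and the CDK1 complex, and they feed into p38 and JNK signalling, in T cells among others. Cyclins G1 and G2 are atypical cyclins linked to the phosphatase PP2A, the first a p53 target and the second a FoxO target. BTG proteins bind the CCR4-NOT deadenylase, which shortens poly(A) tails, and Btg1 and Btg2 are known to keep lymphocytes quiescent.

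Of the 9 genes, 3 passed the test across all probes (limma, adjusted p below 0.05), where 0.778% of all probes passed. With the replicate number as a block, by which the arrays were taken to be paired, 0 of the 9 passed and 0.198% of all probes did. Gadd45g and Gadd45a were higher in Dex, a direction in which 0.563% of all probes passed, and Btg2 was lower, as were 0.215% of all probes. On 5 of the 9 genes all Dex arrays lay on one side of all Control arrays, which held for 9.1% of all probes, and these were the 3 called genes with Gadd45b and Mdm2. The signal to noise statistic of the study's methods was run here at a nominal p of 0.01 and a fold change of 1.2. It called the same 5 genes, and 2784 of all probes (6.79%). The study states a far smaller number of genes at these thresholds, so the 5 calls are those of the statistic as run here. Why the numbers differ was not tested. The median log2 fold change of the 9 genes was 0.24, against 0.00 for all probes, with 5 genes higher and 4 lower in Dex.

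The arrays were not alike within the groups. Control 1 and Dex 3 were hybridized on one slide and scanned on one day, Control 2 to 4 on another slide, and Dex 1, 2 and 4 on the last one, and both of these slides were scanned on another day. Beyond this, Dex 1 and Dex 2 both lay above or both below Dex 3 and Dex 4 on 79.4% of all probes and on 6 of the 9 members, and the median SD of a probe was 0.28 in Control and 0.496 in Dex (log2). The software's background flag was passed by 24937 to 34488 probes of an array, with the fewest on Dex 2 and Dex 1. Each member is therefore given array by array, and the part of slide, scan day and this division of the Dex arrays in the results was not tested beyond the values given.

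**Figure D1:**
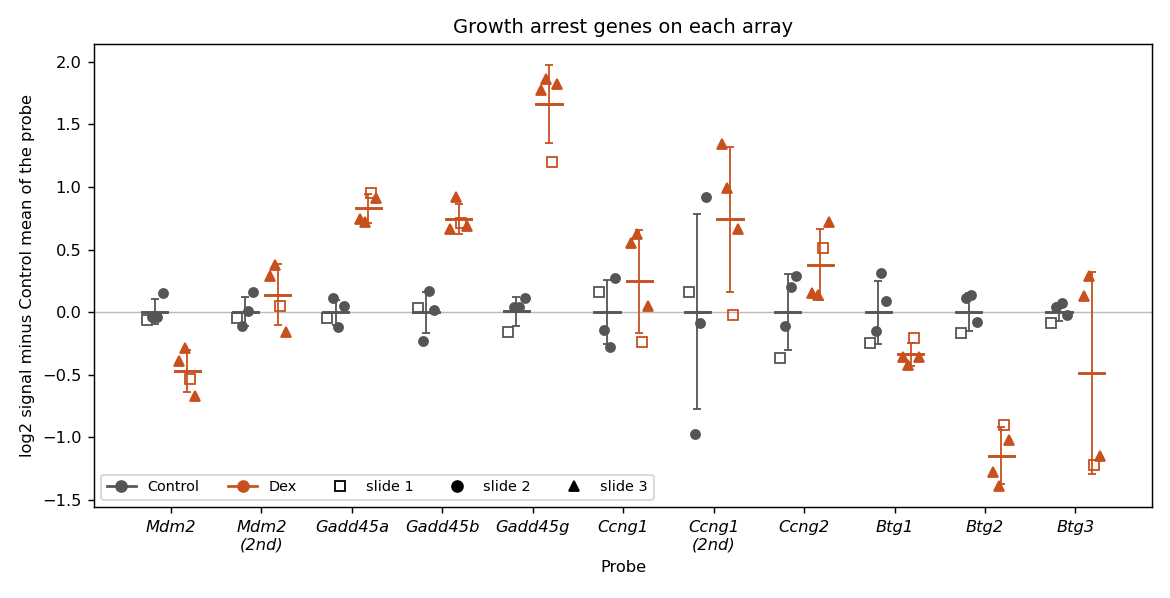
Log2 signal of each of the 11 probes minus that probe's Control mean (y axis) on the 8 arrays, with Control in grey and Dex in orange, the horizontal bar at the group mean, the whisker at 1 SD (n = 4 arrays) and the symbol showing the slide. Gadd45a, Gadd45b and Gadd45g lie above all Control arrays on all 4 Dex arrays, Btg2 and the brighter Mdm2 probe lie below them, and Btg3 divides into Dex arrays near the Control level and Dex arrays about 1.2 below it.

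Because the results turn on the GADD45 genes and Btg2, the 250 bases before their annotated start are shown, together with those of Ccng1, which carried a match to the p53 response element. The sequences are RefSeq's on build GRCr8, read 5′ to 3′ on the strand of the gene. All 9 members were found in the table of 33469 promoters. Capitals in the first 4 windows mark CCAAT boxes in the sense direction, the TATA box TATAAA of Gadd45g and the cAMP response element TGACGTCA of Btg2, and in Ccng1 they mark the p53 matches alone.
Gadd45a, chr4:97486800-97487049, minus strand: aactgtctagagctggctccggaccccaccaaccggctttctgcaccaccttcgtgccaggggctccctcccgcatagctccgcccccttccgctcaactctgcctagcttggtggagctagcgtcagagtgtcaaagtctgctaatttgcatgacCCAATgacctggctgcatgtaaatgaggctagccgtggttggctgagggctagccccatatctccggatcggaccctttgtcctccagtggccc
Gadd45b, chr7:9430719-9430968, minus strand: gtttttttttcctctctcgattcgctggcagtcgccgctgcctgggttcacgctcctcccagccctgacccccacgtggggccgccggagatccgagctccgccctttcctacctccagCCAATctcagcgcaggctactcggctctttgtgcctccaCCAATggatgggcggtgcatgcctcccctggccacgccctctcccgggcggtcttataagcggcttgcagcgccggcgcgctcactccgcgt
Gadd45g, chr17:13530352-13530601, minus strand: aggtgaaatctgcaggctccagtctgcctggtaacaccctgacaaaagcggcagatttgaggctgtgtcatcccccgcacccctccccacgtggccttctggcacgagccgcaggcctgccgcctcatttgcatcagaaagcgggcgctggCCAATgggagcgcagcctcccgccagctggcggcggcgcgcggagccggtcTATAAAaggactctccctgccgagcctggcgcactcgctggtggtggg
Btg2, chr13:48087691-48087940, minus strand: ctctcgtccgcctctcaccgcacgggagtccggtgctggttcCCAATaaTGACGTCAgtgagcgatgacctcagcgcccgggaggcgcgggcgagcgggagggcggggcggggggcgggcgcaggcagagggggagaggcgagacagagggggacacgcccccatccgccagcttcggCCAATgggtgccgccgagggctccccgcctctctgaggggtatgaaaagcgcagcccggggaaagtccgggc
Ccng1, chr10:25684877-25685126, minus strand: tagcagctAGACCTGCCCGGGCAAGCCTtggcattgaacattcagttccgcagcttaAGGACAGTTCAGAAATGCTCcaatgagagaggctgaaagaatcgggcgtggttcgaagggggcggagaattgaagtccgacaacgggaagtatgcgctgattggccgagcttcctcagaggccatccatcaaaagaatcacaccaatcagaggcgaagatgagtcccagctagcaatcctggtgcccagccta

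All motifs were searched in these 250 bases on both strands, except that the TATA box was searched in the sense direction only. The p53 response element, a pair of adjoining half-sites of 10 bases each, matched with up to 3 mismatches in 1 of the 9 members, Ccng1, and in 5.22% of all promoters. Its first match in Ccng1 began 242 bases before the start with 1 mismatch, and a second began 193 bases before it with 3 mismatches. The glucocorticoid response element, AGAACA, any 3 bases, then TGTTCT, with up to 2 mismatches, matched in 0 of the 9 members and in 1.58% of all promoters, which says only that these letters were not found in this window. The forkhead motif TGTTTAC was found in Mdm2 and in 3.21% of all promoters, TGACGTCA in Btg2 and in 1.59%, and TATAAA in Gadd45g and in 8.06%. A CCAAT box in either direction was found in 7 of the 9 members and in 34.0% of all promoters. G and C made up 53.6% to 78.0% of the members' windows, against a median of 51.2% over all promoters.

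Among the GADD45 genes, Gadd45g responded with the largest fold change of the 9 members. GADD45 gamma is a cytokine-inducible member of the family that works with p38 signalling in T helper cells. Its probe lies at chr17:19231059-19231118 (build rn3, minus strand) and reads a predicted transcript. The log2 signal was 6.86, 7.06, 7.06 and 7.13 on Control 1 to 4, and 8.79, 8.88, 8.22 and 8.84 on Dex 1 to 4. All Dex arrays lay at least 1.09 above the highest Control array, with Dex 3 the lowest of the 4. The log2 fold change of 1.66 (SE 0.19, 95% interval 1.22 to 2.10), or 3.16-fold, passed the test with a limma adjusted p of 0.00892. Between arrays of the same replicate number the difference ranged from 1.16 to 1.93, and blocking on the replicate number gave a limma adjusted p of 0.0809. On the slide that Control 1 and Dex 3 share, the difference was 1.36.

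Gadd45a, the founding DNA damage gene of the family and a textbook p53 target, was also higher in Dex. The probe lies at chr4:96894935-96894994 (rn3, minus strand). It gave 12.16, 12.32, 12.09 and 12.26 on Control 1 to 4, and 12.95, 12.93, 13.16 and 13.12 on Dex 1 to 4. The groups were separated by 0.61, and Dex 1 and 2 were slightly lower than Dex 3 and 4. The log2 fold change was 0.83 (SE 0.14, 95% interval 0.50 to 1.16), or 1.78-fold, with a limma adjusted p of 0.0484, close to the threshold. It had the same sign in all 4 pairs of like number (0.61 to 1.07), and within the shared slide it was 1.00. The call was lost with the replicate number as a block (limma adjusted p = 0.195), with every left-out array (limma adjusted p from 0.0981 to 0.174) and with scan day as a block (limma adjusted p = 0.101).

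Gadd45b, an early response gene of NF-kappaB and TGF-beta signalling that restrains JNK, did not pass the test. Its probe covers chr7:10289049-10289076 (rn3, minus strand), a placed stretch of 28 bases for a probe of 60. The log2 signal was 9.5, 9.24, 9.64 and 9.49 on Control 1 to 4, and 10.13, 10.39, 10.18 and 10.16 on Dex 1 to 4. The groups did not overlap and were 0.49 apart. With a log2 fold change of 0.75 (SE 0.15, 95% interval 0.39 to 1.10), or 1.68-fold, its limma adjusted p was 0.0932. It came below 0.05 in 3 of the 18 other fits with adjusted p-values, those with normexp background correction, without dim probes and with the slide as a random block. These fits also called more of the probes they tested, 2.22%, 1.93% and 4.48%, against 0.778% as reported. The random block used a correlation between arrays of a slide of -0.235, and 2 of the slides hold arrays of a single group.

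Differences in response between members of a family were tested for 7 pairs by an exact two-sided permutation test of the difference in log2 signal per array, adjusted over the 7 pairs. The smallest p that 4 arrays against 4 allow is 0.0286. The log2 fold change of Gadd45a was lower than that of Gadd45g (difference -0.83), and that of Gadd45b was too (difference -0.91), each without overlap of the groups (exact permutation p = 0.0286, adjusted p = 0.0667 for both). These differences did not pass after adjustment. The sizes depended on the processing, since with normexp background correction they were -0.33 (exact permutation p = 0.171) and -0.49 (exact permutation p = 0.0571), and within the shared slide Gadd45a against Gadd45g was -0.36. Gadd45a and Gadd45b differed by 0.09 (exact permutation p = 0.629, adjusted p = 0.771), with per-array gaps of 2.74 ± 0.26 in Control and 2.83 ± 0.21 in Dex (SD, n = 4).

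Btg2, which is an early p53 and growth factor response gene and was first described as an antiproliferative gene, was the member called lower in Dex. The probe lies at chr13:47041065-47041124 (rn3, minus strand). The log2 signal was 15.91, 16.19, 16.22 and 16.00 on Control 1 to 4, and 14.80, 14.69, 15.18 and 15.06 on Dex 1 to 4. All Dex arrays were at least 0.72 below the lowest Control array, and the spot was saturated on 0 arrays. The log2 fold change of -1.15 (SE 0.17, 95% interval -1.55 to -0.75), or 2.22-fold lower, had a limma adjusted p of 0.0294. All 4 differences within replicate numbers were negative, from -1.50 to -0.94, and the value within the shared slide was -0.72. With the replicate number as a block the limma adjusted p was 0.131. Leaving out 1 array lost the call in 7 of 8 cases, with limma adjusted p from 0.0427 without Dex 3 to 0.137.

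Btg1, the closest relative of Btg2 and a gene of resting lymphocytes, gave 16.50, 16.60, 17.06 and 16.84 on Control 1 to 4. Its signal on Dex 1 to 4 was 16.39, 16.33, 16.54 and 16.39. Dex 3 lay just above Control 1, so the groups overlapped by 0.04. The log2 fold change was -0.34 (SE 0.17, 95% interval -0.73 to 0.05), with a limma adjusted p of 0.556, and within the shared slide it was 0.04. Btg1 differed from Btg2 in response by 0.81 on the log2 scale, without overlap of the groups (exact permutation p = 0.0286, adjusted p = 0.0667).
The Btg1 probe (chr7:34051639-34051698, rn3, plus strand) has relatives on the array, since 2 Btg1-like predicted transcripts, placed on chromosome X and on X_random, have probes of their own. These changed by 0.12 (RGD1563150) and 0.44 (LOC367975), with limma adjusted p of 0.953 and 0.865, and signal of one transcript on the probe of another cannot be told apart here. Both means cover divided Dex arrays. Dex 1 to 4 gave 4.24, 4.26, 6.10 and 5.68 for RGD1563150 and 6.23, 5.46, 7.95 and 8.35 for LOC367975. The RGD1563150 probe was well above background on only 2 Dex arrays.

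Btg3, a p53 target that is known to inhibit E2F1, gave Dex arrays that did not lie together. On Control 1 to 4 the signal was 5.25, 5.38, 5.41 and 5.32. The Dex arrays divided, with 5.47 and 5.63 on Dex 1 and 2, above every Control array, and 4.12 and 4.19 on Dex 3 and 4, below every Control array. The SD was 0.81 in Dex against 0.07 in Control, and the mean log2 fold change of -0.49 (95% interval -1.35 to 0.36) had a limma adjusted p of 0.717. Its probe spans 4251 bases on chr11:17250105-17254355 (rn3, minus strand), which is more than its 60 bases, so it crosses an intron. The mean moved with the arrays used, from -0.75 to -0.25 with 1 array left out, and was -0.12 with normexp background correction and -1.13 within the shared slide. Against Btg3, the difference in response was 0.15 for Btg1 (exact permutation p = 0.714, adjusted p = 0.771) and -0.66 for Btg2 (exact permutation p = 0.429, adjusted p = 0.75), with groups that overlapped. The latter was -0.32 without Dex 2 and -0.99 without Dex 3, and -1.02 with normexp correction (exact permutation p = 0.0286, adjusted p = 0.1).

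The cyclin G genes did not pass the test. Ccng1, whose promoter window held the p53 match shown above, gave 10.01, 9.71, 9.57 and 10.12 on Control 1 to 4 with its brighter probe (chr10:25777917-25777976, rn3, minus strand). Dex 1 to 4 gave 10.40, 10.47, 9.61 and 9.90. Dex 1 and 2 lay above all Control arrays while Dex 3 and 4 lay within them, and the log2 fold change was 0.24 (95% interval -0.31 to 0.80, limma adjusted p = 0.786). It was 0.12 without Dex 2 and 0.41 without Dex 3, the ends of the range with 1 array left out. The second Ccng1 probe ranged from 7.56 to 9.45 in Control and from 8.51 to 9.87 in Dex. It had a log2 fold change of 0.74 (95% interval -0.26 to 1.74, limma adjusted p = 0.628), and its difference from the first was within the spread (first minus second -0.50 on the log2 scale, exact permutation p = 0.2).
Ccng2, a FoxO target that accumulates in resting cells, gave 9.09, 9.35, 9.66 and 9.75 on Control 1 to 4 and 9.61, 9.60, 9.97 and 10.18 on Dex 1 to 4 (chr14:16345533-16345592, rn3, minus strand). All 4 differences within replicate numbers were positive, from 0.26 to 0.52. The groups overlapped, and the log2 fold change was 0.38 (95% interval -0.12 to 0.88, limma adjusted p = 0.615), or 0.88 within the shared slide. Ccng1 and Ccng2 differed in response by -0.14, within the spread (exact permutation p = 0.771, adjusted p = 0.771).

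Mdm2 is the member in which the probes disagreed. The brighter probe (chr7:57017610-57017669, rn3, minus strand) gave 10.02, 10.04, 10.04 and 10.23 on Control 1 to 4 and 9.69, 9.79, 9.55 and 9.41 on Dex 1 to 4. All Dex arrays lay below all Control arrays, by at least 0.23. The log2 fold change was -0.47 (SE 0.15, 95% interval -0.82 to -0.13), with a limma p of 0.0137 before adjustment and an adjusted p of 0.295. No Ensembl transcript is listed for this probe in the scanner output, and it starts 8621 bases downstream of the other.
The second Mdm2 probe (chr7:57026231-57026565, rn3, minus strand) spans 335 bases and so crosses a splice junction. It gave 8.21, 8.15, 8.27 and 8.42 in Control and 8.55, 8.64, 8.31 and 8.10 in Dex. These groups overlapped, and the log2 fold change was 0.14 (95% interval -0.26 to 0.53, limma adjusted p = 0.838). The difference in response, brighter minus second probe, was -0.61 on the log2 scale (exact permutation p = 0.0286, unadjusted and the smallest this design allows, groups not overlapping), so no single direction can be given for Mdm2. The splice-crossing probe is shown because it reads joined exons, and the letters are those of the array.
Mdm2, second probe: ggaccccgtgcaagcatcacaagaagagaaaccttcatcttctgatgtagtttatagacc

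**Figure D2:**
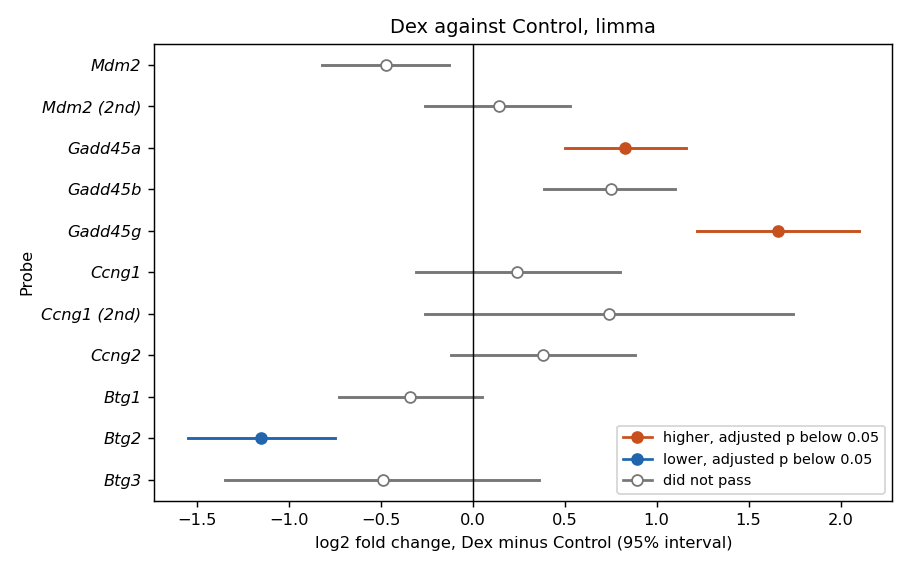
Log2 fold change of Dex against Control (x axis) for the 11 probes, as the point with its 95% interval from limma (4 arrays per group), filled where the adjusted p was below 0.05. Gadd45a (0.83) and Gadd45g (1.66) are higher and Btg2 (-1.15) is lower, while the intervals of Gadd45b and the brighter Mdm2 probe exclude 0 without passing after adjustment over all probes.

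The wider pathway was read from 6 lists of related genes, of which 79 genes were on the array. In all, 3 of them passed the test (3.8%, against 0.778% of all probes), 2 higher and 1 lower in Dex, and 16 had groups that did not overlap (20.3%, against 9.1% of all probes). Their median log2 fold change was -0.02.
Cdkn1a, which encodes the CDK inhibitor p21 and is the best known p53 arrest target, differed by 0.06 on the log2 scale (limma adjusted p = 0.955) on the probe above background. This mean covers Dex arrays that divided. The signal was 6.44 to 6.77 in Control. On Dex 1 and 2 it was 7.10 and 6.85, above every Control array, and on Dex 3 and 4 it was 6.33 and 6.28, below every Control array. Its second probe was not well above background on any array.

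Of 13 p53 regulators on the array, 1 passed, Tp53inp1, a stress-induced nuclear protein that promotes p53 phosphorylation. It gave 7.92, 7.96, 7.35 and 7.57 on Control 1 to 4 and 9.48, 9.59, 9.17 and 8.92 on Dex 1 to 4. All Dex arrays lay above all Control arrays, and the log2 fold change was 1.59 (SE 0.22, limma adjusted p = 0.0214), or 3.01-fold. Leaving out 1 array lost this call in 6 of 8 cases, the exceptions being Dex 3 and Dex 4 (limma adjusted p from 0.0348 to 0.103), and Tp53inp1 passed in 7 of the 18 other fits. The p53 kinase gene Hipk2 stood at -0.70 (log2 fold change, limma adjusted p = 0.097) and the ubiquitin ligase gene Ube4b at -0.28 (limma adjusted p = 0.509). Neither passed, although all Dex arrays were below all Control arrays on the Hipk2 probe and the brighter Ube4b probe. A second Ube4b probe stood at -0.39 (limma adjusted p = 0.695) with groups that overlapped.
Of 15 p53 arrest and repair targets, 1 passed, Sesn1, a p53 and FoxO target that restrains mTORC1. Its signal was 11.20, 11.27, 11.27 and 11.28 on Control 1 to 4 and 12.47, 12.60, 12.58 and 12.49 on Dex 1 to 4. The spread within the groups was small beside the log2 fold change of 1.28 (SE 0.13, limma adjusted p = 0.00543), or 2.43-fold. Sesn1 passed with each array left out and in 14 of the 18 other fits. The phosphatase gene Ptp4a3 (0.92, limma adjusted p = 0.124) and Tp53i11 (-0.99, limma adjusted p = 0.21) had groups that did not overlap and did not pass, and a second Tp53i11 probe went the other way (0.50, limma adjusted p = 0.662).
Of 12 p53 death targets, 1 passed, Fas, the death receptor. Its brighter probe gave 12.52, 12.65, 12.64 and 12.53 on Control 1 to 4 and 11.82, 11.87, 11.70 and 11.69 on Dex 1 to 4. All Dex arrays lay below all Control arrays, and the log2 fold change was -0.82 (SE 0.14, limma adjusted p = 0.0418), while the second probe gave -0.43 (limma adjusted p = 0.617). The call was lost with each of the 8 arrays left out (limma adjusted p from 0.089 to 0.183), and Fas passed in 4 of the 18 other fits with adjusted p-values. Bbc3, which encodes the BH3-only protein PUMA, stood at 0.63 (log2 fold change, limma adjusted p = 0.326) and Bid at -0.66 (limma adjusted p = 0.112). With the replicate number as a block, 0 of the 79 pathway genes passed.

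None of the 16 GADD45 partners and other GADD genes on the array passed, none of the 13 BTG and TOB relatives and CCR4-NOT genes, and none of the 10 cyclin G partners and FoxO genes. Before adjustment 3, 1 and 0 of them had a limma p below 0.05, as did 10.6% of all probes, and the signal to noise statistic called 3, 0 and 0, against 6.79% of all probes. Among the partners of GADD45 proteins, Map2k7, the JNK kinase that GADD45 beta binds, had a log2 fold change of 1.28 with groups that did not overlap (limma adjusted p = 0.097). Cdk1, the mitotic kinase held back by GADD45 proteins, had -0.64 (limma adjusted p = 0.13), and Mapk9, which encodes JNK2, had -0.54 (limma adjusted p = 0.257). Its dimmer probes stood at -0.56 and -0.52 (limma adjusted p = 0.671 and 0.447), both with groups that overlapped. In the BTG list 0 of 13 genes had groups without overlap. In the cyclin G list this held for Gak alone, the kinase named for its binding to cyclin G, at 0.23 (limma adjusted p = 0.643).

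**Figure D3:**
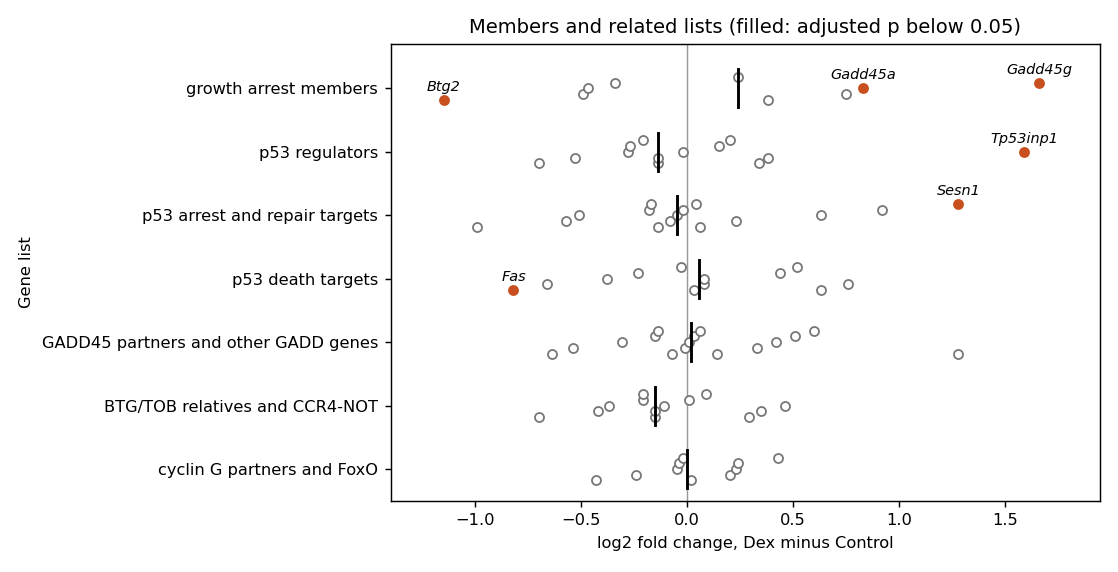
Log2 fold change of Dex against Control (x axis) for the 9 members and the genes of the 6 related lists (rows), 1 point per gene from its brightest probe, filled and named where the limma adjusted p was below 0.05, with a black bar at each list's median. The lists' medians lie between -0.15 and 0.06, and the called genes Tp53inp1 and Sesn1 lie far above those medians while Fas lies below.

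The identity of the cells and the action of the hormone were checked on lists of known genes. Of 16 thymocyte markers 15 were on the array, all 15 were well above background on all arrays, and 0 passed the test (4 had a limma p below 0.05 before adjustment). By mean, 3 were higher and 12 lower in Dex with a median of -0.17 on the log2 scale, and Cd5 (-0.70, limma adjusted p = 0.197) and Ptcra (-0.61, limma adjusted p = 0.154) had all Dex arrays below all Control arrays. Cd8b stood at 0.52 (limma adjusted p = 0.326), with all 4 Dex arrays (16.42 to 16.51) above the 3 measured Control arrays (15.81 to 16.19). The summed linear signal of the 14 with a value on every array (the Cd8b spot of Control 1 was an outlier and left out) was 338000 to 372000 in Control, 375000 and 364000 on Dex 1 and 2, and 268000 and 272000 on Dex 3 and 4, below all Control arrays. Of 12 glucocorticoid response genes 7 passed, each with more signal in Dex, and the 12 genes had a median of 1.48 (log2 fold change). Sgk1 went the other way, at -1.32 with groups that did not overlap (limma adjusted p = 0.0503).
Markers of other cells were read in the same way. The summed signal of 10 macrophage markers was 4470 to 6170 in Control and 4350 to 8800 in Dex, that of 5 B cell markers 387 to 527 and 263 to 613, that of 10 stromal and endothelial markers 852 to 1280 and 776 to 1680, and that of 3 erythroid markers 303 to 1380 and 343 to 2360. The stromal and endothelial sum was 894 and 776 on Dex 1 and 2, and 1680 and 1650 on Dex 3 and 4, the arrays with the lowest thymocyte sums. Among all of these markers 1 passed, the endothelial gene Pecam1, 1.36 higher in Dex on the log2 scale (limma adjusted p = 0.0208). On the brightest probe, groups also did not overlap, with Dex above, for Mrc1 (2.12, limma adjusted p = 0.087) and C1qc (0.97, limma adjusted p = 0.327) of macrophages. They did not overlap for Pdgfrb of stromal cells either (limma adjusted p = 0.16), but its probe was well above background on only 2 Control and 3 Dex arrays. By mean, 6 of 10 macrophage, 2 of 5 B cell, 9 of 10 stromal and endothelial and 3 of 3 erythroid markers were above Control, with medians of 0.16, -0.10, 0.59 and 0.45 on the log2 scale, and the sums rest mainly on the brightest probes. Of the 10 stromal and endothelial probes 5 were well above background on all arrays and 2 on none, and of the 5 B cell probes 3 were so on all arrays. Their part in the results for the members was not tested, and in RNA of mixed cells fewer cells of a type and less RNA per cell cannot be told apart.

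**Figure D4:**
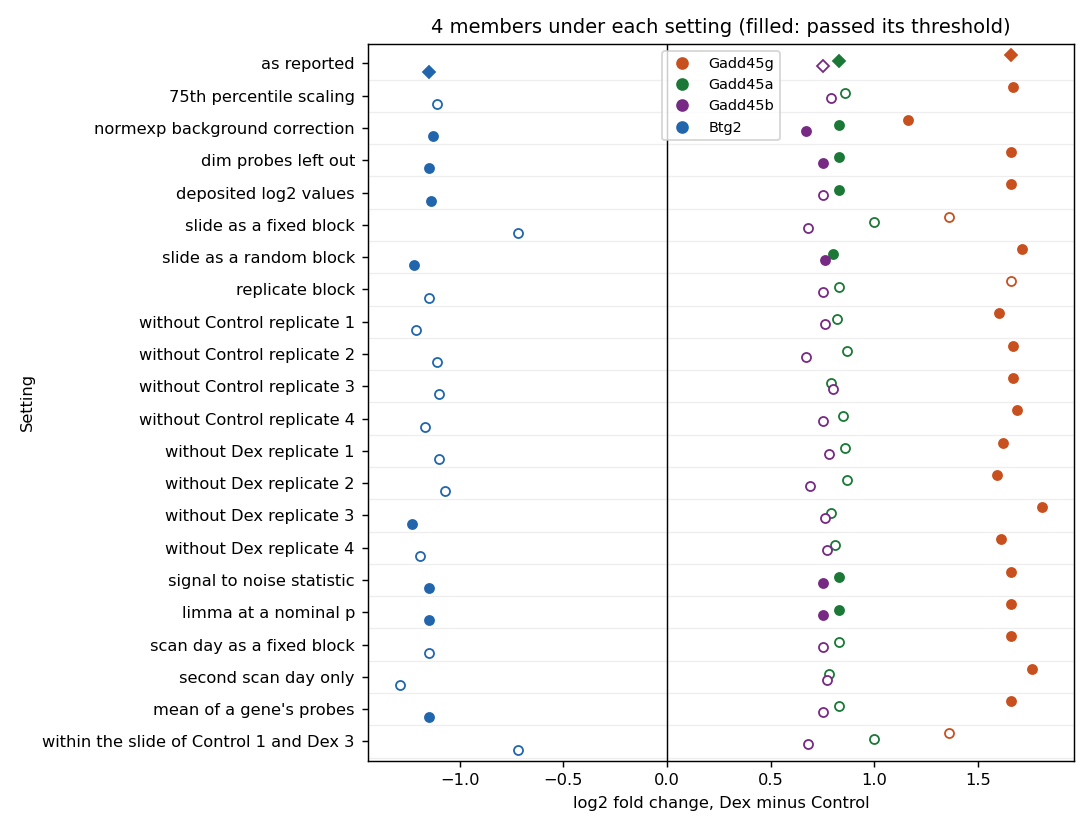
Log2 fold change of Dex against Control (x axis) for Gadd45g, Gadd45a, Gadd45b and Btg2 under each setting of the analysis (rows), with diamonds for the values as reported and filled symbols where the gene passed that setting's threshold; the value within the slide shared by Control 1 and Dex 3 has no test. Gadd45g stays between 1.16 and 1.81, Gadd45a between 0.78 and 1.00, Gadd45b between 0.67 and 0.80 and Btg2 between -1.29 and -0.72, whereas the number that passed changes from row to row.

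Across the 20 other settings the direction of Gadd45g, Gadd45a, Gadd45b, Btg2, Mdm2 (brighter probe), Ccng2 and Btg3 was kept, and Ccng1 and Btg1 each turned in 1 of them, the fit with the slide as a fixed block, to -0.40 and 0.04. In some settings the direction could not turn, because the fold change equals the reported one by construction. These are the signal to noise statistic, the nominal p, the filter on dim probes and the replicate and scan day blocks. For genes with a single probe, the mean of a gene's probes is a further one. Gadd45g passed in 16 of the 18 fits with adjusted p-values, Btg2 in 6, Gadd45a in 4 and Gadd45b in 3. The fits in which 0 of the 9 genes passed were those with the slide and with the replicate number as a fixed block. The first of these rests on Control 1 against Dex 3 for its direction, and over all probes it called 1.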

How the data were processed

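RNA of cultured rat thymocytes was hybridized by the authors to 8 1-color 60-base Agilent Whole Rat Genome arrays, and spots were read with Agilent Feature Extraction (version 9.5.3.1). The deposited scanner files hold each spot's background-subtracted intensity, not normalized between arrays, with flags for background, saturation and outliers and probe positions on build rn3. The authors also deposited log2 values, quantile normalized and summarized per probe by median polish. Recomputing these steps here from the intensities, without control and outlier spots, gave a median absolute difference from the deposited log2 values of at most 0.00158 on any array, and the recomputed values were used.

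Probes were tested with limma (version 3.58.1 in R version 4.3.3, lmFit and eBayes, two-sided, no block) with Benjamini-Hochberg adjustment over 41012 probes, of which 16 single values were missing, and called at an adjusted p below 0.05. The study's signal to noise statistic was run over all 70 assignments of the arrays, with the distribution pooled over probes (the study drew sample and probe permutations). Its p is that of the smaller single tail, so it is less strict than the two-sided limma p at the same nominal threshold. The probe brightest over all arrays stands for a gene. Single comparisons used exact two-sided permutation tests. No value column was left without a sample (0 columns).

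The members, the gene lists and the comparisons were chosen with earlier results of these data known. Besides the members, the text names Cdkn1a, each called gene of the 6 pathway lists, and per list up to 3 genes with the largest change among those with separate groups and signal above background in the brighter group, and, for each called member, the 2 genes most alike over arrays. Related transcripts of Btg1 and markers with a call, separate groups or a missing value, and Sgk1, were named after their values were seen. Of the genes this rule names, 1 is not reported here. Deviations from the group means correlated at 0.397, 0.129, 0.55 and 0.184 between arrays of like number, each over 0.1, and the arrays were therefore treated as paired by number where a block was fitted. Some arrays of unlike number correlated as highly (0.401 between Control 1 and Dex 2, 0.392 between Control 3 and Dex 4, 0.188 between Control 2 and Dex 1), so the numbers do not single out every pair. Other alternatives were 75th percentile scaling, normexp background correction, a filter on dim probes, the slide as a block, the mean of a gene's probes and leaving out each array. Scan day as a block and the second scan day alone were added after seeing the data. The procedure was tested on simulated data. The number of arrays and the signal over background limit the precision.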

Additional observations from a re-analysis of the deposited data

Results flagged for a closer look

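In 4 of 50 groups of 4 arrays of the named genes, 1 array stood apart by Dixon's test at the 95% level, which chance alone does in about 1 group in 20. Each value below is the gap of that array to the nearest other one as a share of the group's whole range. Gadd45g on Dex 3 (8.22, the others 8.79 to 8.88) had a share of 0.867, and without Dex 3 its log2 fold change was 1.81. Control 4 was the high array of the brighter Mdm2 probe (10.23, the others 10.02 to 10.04, share 0.888). Ube4b was low on Control 3 (9.47, the others 9.58 to 9.59, share 0.878), and Sesn1 was low on Control 1 (11.20, the others 11.27 to 11.28, share 0.864). In the 3 Control groups the array that stood apart differed from the nearest other by less than 0.2 on the log2 scale.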

How the results depend on the processing

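Of the 9 members 3 passed as reported, 4 with normexp background correction, without dim probes, with the slide as a random block and at a nominal p, 5 by the signal to noise statistic, 3 with the deposited log2 values and 2 with the mean of a gene's probes. Only 1 passed, Gadd45g, with 75th percentile scaling, with scan day as a block and on the second scan day alone, the latter alternatives having been chosen after seeing the data. With each array left out in turn 1 to 2 passed, and 0 passed when the slide or the replicate number entered as a fixed block. Why the counts differ between settings was not tested. Over all probes 319 (0.778%) were called as reported, 81 (0.198%) with the replicate block, 912 (2.22%) with normexp correction, 550 (1.93% of 28491) without dim probes, 1593 (3.88%) at a nominal p, 1838 (4.48%) with the random slide block (correlation between arrays of a slide -0.235), 166 (0.405%) with 75th percentile scaling and 96 to 249 with 1 array left out. With scan day as a block 190 (0.463%) were called, and on the second scan day alone 56 (0.137%). The deposited log2 values gave 316 (0.771%) and the mean of a gene's probes 277 (0.675%).

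Of the 79 pathway genes 3 passed as reported, 8 with normexp correction, 5 without dim probes, 9 with the random slide block, 9 at a nominal p, 13 by the signal to noise statistic, 1 with scan day as a block, 0 on the second scan day alone, 0 with 75th percentile scaling, 0 with the fixed slide block, 0 with the replicate block and 1 to 2 without 1 array.

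Slide as a fixed block reversed Ccng1 (-0.40) and Btg1 (0.04), as did the difference within the slide of Control 1 and Dex 3 (-0.40 and 0.04). Differences between family members that missed the threshold reversed in some settings. Btg1 against Btg3 was -0.19 with normexp correction, and -0.13 and -0.06 without Dex replicates 3 and 4 (-0.13 to 0.44 with any 1 array left out). Ccng1 against Ccng2 was 0.11 with the mean of a gene's probes, and without 1 array it lay between -0.34 and 0.07. Gadd45a against Gadd45b was -0.01 without Control replicate 3 (-0.01 to 0.20 with any 1 array left out). Within the shared slide Gadd45a against Gadd45g was -0.36, Btg1 against Btg3 1.18, Btg2 against Btg3 0.41 and Ccng1 against Ccng2 -1.28. With 75th percentile scaling Gadd45a against Gadd45g, Gadd45b against Gadd45g, Btg1 against Btg2 and Btg2 against Btg3 (-0.72) had an adjusted p of 0.050 (exact permutation p = 0.0286), at the threshold and not below it. With the replicate block (exact sign-flip test) the first 3 of these pairs had p = 0.125, the smallest that 4 pairs allow.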

Other observations

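Among 12082 genes with signal well above background on all 8 arrays, those whose deviations from the group means ran most like a called member were Cd4 (Pearson r = 0.987) and Osm (0.975) for Gadd45g, Aacs (0.982) and Akap8l (0.976) for Btg2, and RGD1560584 (0.949) and Gpsm1 (0.947) for Gadd45a. These values describe 8 arrays from which the group difference was taken out, and the arrays share slides and the division of the Dex arrays. None of the 6 genes passed the test for Dex against Control (log2 fold changes from -0.41 to 0.14).

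Between members the same measure was lowest for Ccng1 with Btg2 (r = -0.96) and highest for Ccng1 with Btg3 (r = 0.78), over the 8 arrays. Dex 1 and 2 lay above Dex 3 and 4 on both Ccng1 probes, both Mdm2 probes and Btg3, and below them on Gadd45a, Ccng2 and Btg2, while Gadd45b, Gadd45g and Btg1 were mixed. The mean gap was largest for Btg3, at 1.40 on the log2 scale.

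Annotated windows of the members held 10 to 47 CG dinucleotides per 250 bases, against a median of 5 over all promoters.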
